A study of Mus musculus with 4 samples.

Results

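Interleukin-1 receptor and NF-κB signalling was followed in mouse liver through 10 genes, Il1r1, Il1rap, Myd88, Irak1, Irak2, Irak4, Nfkb1, Rela, Nfkbia and Cxcl1. Each was represented by all probe sets of the array whose platform annotation gave exactly 1 gene symbol equal to it. This found 22 probe sets of 8 genes, among 45037 probe sets and 18193 singly named genes on the arrays, and Irak4 and Nfkb1 are not analysed here. Of the 22 probe sets, 18 were at 4 or more (log2) on at least 1 array and were analysed; below 4 a signal was treated as too dim to measure. The other 4, 1 of Il1r1, 2 of Il1rap and 1 of Cxcl1, were below 4 throughout, and each of the 8 genes kept at least 1 probe set.

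The study took livers of male C57BL/6J mice that were 8 to 12 weeks old when they started 20 weeks on a high-fat diet with 45% of energy as fat or a low-fat diet with 10%. In the last week they were injected with clodronate liposomes, which kill the phagocytes that swallow them, or with phosphate-buffered saline (PBS). The 4 groups are written HF clodronate, HF PBS, LF clodronate and LF PBS, with HF for the high-fat and LF for the low-fat diet, and all animals were of the same strain and sex and carried no modified allele in the labels. RNA of 10 mice in each high-fat group and of 8 mice in each low-fat group was pooled onto 1 array per group, so the spread between mice was not measured. No group received empty liposomes, so a difference between clodronate and PBS pools may come from the liposomes, the drug or the lost macrophages, and these cannot be told apart. In whole liver, fewer cells of a type and less RNA per cell cannot be told apart either. The question behind the comparison, given in the series title, was whether Kupffer cells, macrophages that reside in the liver sinusoids, act on liver fat through interleukin-1β.

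Interleukin-1 binds the receptor chain Il1r1, which then recruits the accessory chain Il1rap. The adaptor Myd88 docks on the paired chains and gathers kinases of the Irak family, and the signal passes through Traf6 and the IκB kinases to release NF-κB dimers, such as Rela with p50, from the inhibitor IκBα, encoded by Nfkbia. NF-κB then enters the nucleus and induces, among others, Nfkbia itself as feedback and the neutrophil-attracting chemokine Cxcl1. In the liver both hepatocytes and non-parenchymal cells carry interleukin-1 receptors. Control of the pathway acts largely on proteins, by phosphorylation and degradation, which arrays do not measure.

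The promoters of Cxcl1 and Nfkbia are shown because both are named above as genes that NF-κB induces, among others. Each stretch covers 120 bases up to the base before the RefSeq transcription start, 5′ to 3′ on the gene's strand, in GRCm38.p6. Cxcl1 lies at chr5:90891125-90891244 on the plus strand and Nfkbia at chr12:55492648-55492767 on the minus strand, and capitals mark matches to the κB consensus on either strand.
Cxcl1: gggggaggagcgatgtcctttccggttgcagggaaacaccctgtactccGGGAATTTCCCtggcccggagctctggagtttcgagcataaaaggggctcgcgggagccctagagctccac
Nfkbia: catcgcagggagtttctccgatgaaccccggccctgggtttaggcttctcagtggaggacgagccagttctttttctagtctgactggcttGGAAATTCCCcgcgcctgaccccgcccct
In Cxcl1, 2 overlapping matches of 10 letters span bases 71 to 61 before the start. In Nfkbia, 1 match spans bases 29 to 20 before it. Over windows of 300 bases, which reach from 250 bases before to 50 after each start, 4 of the 8 genes had a match, Cxcl1, Nfkbia, Irak1 and Il1r1. These were 5 of 10 windows, since the 2 Irak1 windows overlap and hold the same match, and Il1r1 had it in 1 of its 2 windows. The same consensus was found in 8.46% of 32851 mouse promoter windows. A match describes the letters and is not evidence of binding in these livers.

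Macrophage transcripts were far lower in the clodronate pools. All 9 pan-macrophage markers and 7 of 9 Kupffer cell markers fell in limma with Benjamini-Hochberg adjustment over 16245 probe sets. Without the mean-dependent prior 3 pan-macrophage and 3 Kupffer cell markers passed, and without a filter on dim probe sets 7 and 4, while all 9 of each list were lower in clodronate pools in both fits. Several markers were below 4 in the clodronate pools, and Timd4 reached 4 in LF PBS alone, at 4.04. With values below 4 set to 4, 9 pan-macrophage and 5 Kupffer cell markers fell. Among probe sets at 4 or more on all arrays, 5 of 5 and 1 of 2 fell. The summed linear signal of the pan-macrophage list was 614.1 and 532.9 in the HF and LF clodronate pools, against 4640 and 4888 in the HF and LF PBS pools. That of the Kupffer cell list was 1324 and 1496 in the HF and LF clodronate pools, against 5606 and 6079 in the PBS pools. Hepatocyte markers summed to between 99540 and 102600 on all 4 arrays. Of 10 T, NK, B and plasma cell markers with a probe set, 0 reached 4 on any array.

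Il1r1, the signalling chain of the interleukin-1 receptor, was lowest in LF PBS and close to level in the other pools. Its measurable probe set, 1448950_at, was at 7.64 in HF clodronate, 7.56 in HF PBS, 7.62 in LF clodronate and 7.20 in LF PBS (log2). The difference of clodronate from PBS was therefore 0.08 (log2) on the high-fat diet and 0.41, or 1.33-fold, on the low-fat diet. The high-fat diet differed from the low-fat diet by 0.02 after clodronate and by 0.35 after PBS. Neither averaged effect passed in limma (adjusted p = 1.0 for clodronate and 0.682 for diet). The LF PBS array enters both of the larger differences.

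Il1rap, the accessory chain that completes the receptor and that also has a soluble form, was bright and nearly constant by its brightest probe set alone. That probe set, 1449585_at, was at 11.55 in HF clodronate, 11.50 in HF PBS, 11.54 in LF clodronate and 11.53 in LF PBS, a range of 0.06. A dimmer probe set, 1421844_at, was at 5.63 in HF clodronate, 5.87 in HF PBS, 5.79 in LF clodronate and 6.04 in LF PBS, so clodronate was lower than PBS by 0.24 and 0.25 on the high-fat and low-fat diets. The probe set 1421843_at was at 4.78 in HF PBS and between 4.24 and 4.26 on the other 3 arrays, close to the limit of 4. The 3 probe sets of this gene thus did not share a pattern, and levels of different probe sets cannot be set against each other.

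Myd88, the adaptor of interleukin-1 and most Toll-like receptors, was dim, with a range of 0.45 over the 4 arrays. It was at 4.98 in HF clodronate, 5.20 in HF PBS, 5.43 in LF clodronate and 5.31 in LF PBS. The HF clodronate pool was the lowest, 0.22 under HF PBS and 0.45 under LF clodronate. After quantile normalization the second of these differences was -0.28.

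Irak1, a kinase that joins the receptor complex and leaves it to activate Traf6, was measured by 4 probe sets that differed in pattern. By 1460649_at it was at 7.04 in HF clodronate, 7.51 in HF PBS, 7.57 in LF clodronate and 7.22 in LF PBS, so that clodronate was lower than PBS by 0.48 on the high-fat diet and higher by 0.35 on the low-fat diet. By 1448668_a_at it was at 7.28 in HF clodronate, 7.55 in HF PBS, 7.67 in LF clodronate and 7.58 in LF PBS, with differences of -0.27 and 0.10 in the same directions. Both probe sets were lowest in HF clodronate and highest in LF clodronate.

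The brightest Irak1 probe set, 1438120_x_at, was at 9.30 in HF clodronate, 9.26 in HF PBS, 9.47 in LF clodronate and 9.31 in LF PBS. The fourth, 1438857_x_at, stayed between 7.24 and 7.34. The suffix x marks probe sets some of whose probes also match other transcripts, and neither of these showed the opposite directions. Irak2, a related kinase that sustains the NF-κB response, was at 5.39 in HF clodronate, 5.61 in HF PBS, 5.53 in LF clodronate and 5.70 in LF PBS. It was lower after clodronate by 0.22 on the high-fat and 0.17 on the low-fat diet, a direction that stayed after quantile normalization and after centring of the arrays.

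Rela, the p65 subunit that carries the activation domain of the main NF-κB dimer, differed in opposite directions on the diets. Its single probe set, 1419536_a_at, was at 8.19 in HF clodronate, 8.66 in HF PBS, 8.91 in LF clodronate and 8.42 in LF PBS. Clodronate was lower than PBS by 0.47 (1.38-fold) on the high-fat diet and higher by 0.49 (1.40-fold) on the low-fat diet. The pools thus ran from HF clodronate at the bottom to LF clodronate at the top, 0.72 apart, with both PBS pools between them. After quantile normalization the clodronate differences were -0.42 on the high-fat and 0.46 on the low-fat diet. Averaged over the diets the difference was 0.01 ± 0.22 (SE; limma with Benjamini-Hochberg adjustment, adjusted p = 1.0). In the additive model the opposite directions on the diets enter the residual, so this SE is not a measure of array noise alone. Whether the clodronate difference depended on diet could not be tested, because a model with that term leaves no residual degree of freedom.

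Nfkbia, the inhibitor IκBα, was abundant and almost level. Its brightest probe set, 1438157_s_at, was at 11.35 in HF clodronate, 11.31 in HF PBS, 11.33 in LF clodronate and 11.32 in LF PBS, a range of 0.05. By its suffix s, the probes of this set can match related transcripts. By 1420088_at it was at 10.21 in HF clodronate, 10.24 in HF PBS, 10.29 in LF clodronate and 10.09 in LF PBS, a range of 0.20. The probe sets 1449731_s_at and 1448306_at had ranges of 0.26 and 0.23 and were highest in LF clodronate too. After clodronate these 3 probe sets differed by -0.03, -0.07 and -0.03 on the high-fat diet and were higher by 0.20, 0.22 and 0.23 on the low-fat diet. With the arrays centred on their medians these differences were 0.04 or less on the high-fat diet and 0.14, 0.17 and 0.17 on the low-fat diet. Centring also put 1420088_at 0.04 higher in HF clodronate than in LF clodronate. The fifth, 1420089_at, reached 4 in HF PBS alone, at 4.14.

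Cxcl1, the chemokine that draws neutrophils through the receptor Cxcr2, varied most among the members. It was higher with clodronate and with the high-fat diet in each of the 4 pairs of pools. By 1419209_at it was at 8.36 in HF clodronate, 7.52 in HF PBS, 7.27 in LF clodronate and 6.79 in LF PBS. By 1457644_s_at it was at 7.26 in HF clodronate, 6.38 in HF PBS, 5.92 in LF clodronate and 5.34 in LF PBS. The suffix s marks a probe set whose probes can match related transcripts, and 1419209_at does not carry it. Both probe sets put the 4 pools in the same order, with HF clodronate highest and LF PBS lowest.

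Clodronate was higher than PBS on each diet for Cxcl1. On the high-fat diet the probe sets 1419209_at and 1457644_s_at were 1.79-fold and 1.83-fold higher, and on the low-fat diet 1.40-fold and just under 1.5-fold higher (0.49 and 0.58 on the log2 scale). Averaged over the diets the differences were 0.66 ± 0.14 and 0.73 ± 0.17 (log2, SE). Neither passed in limma with Benjamini-Hochberg adjustment over all probe sets (adjusted p = 0.36 and 0.474), although their unadjusted p values in limma were 0.00359 and 0.00505. The direction was the same on both diets and under every alternative setting run.

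The high-fat diet was higher than the low-fat diet for Cxcl1 with each injection. After clodronate the probe sets 1419209_at and 1457644_s_at were 2.12-fold and 2.52-fold higher, and after PBS 1.67-fold and 2.06-fold higher. Averaged over the injections the differences were 0.91 ± 0.14 and 1.19 ± 0.17 (log2, SE), with adjusted p = 0.105 and 0.0816 in limma with Benjamini-Hochberg adjustment, so neither passed 0.05. This call depended on the prior, on the probe sets tested and on the scaling of the arrays. Without rescaling, 1457644_s_at passed in limma with robust eBayes (adjusted p = 0.0453). With 1 probe set per gene, 1419209_at passed in limma (adjusted p = 0.0139). After quantile normalization both probe sets passed in limma, with differences of 0.95 and 1.24 and adjusted p = 0.0451 and 0.035, and after centring of each array they passed with adjusted p = 0.0311 and 0.0219. Over all alternatives limma gave adjusted p between 0.0139 and 0.473 for 1419209_at and between 0.0219 and 0.415 for 1457644_s_at, with the highest values from the fit without the mean-dependent prior.

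Neutrophil markers were at or below the limit of measurement beside these Cxcl1 values. Of 7 listed markers 2 reached 4 on any array, S100a8 at 4.15 and S100a9 at 4.05, both in LF clodronate alone. Cxcr2, the receptor of Cxcl1, was at 3.06 or less, and Ngp, Camp and Mmp8 were at 2.16 or less. The summed linear signal of the 6 neutrophil genes with a probe set was 36.6 in HF clodronate, 30.6 in HF PBS, 52.2 in LF clodronate and 27.6 in LF PBS. Apart from S100a8 and S100a9 in LF clodronate these sums hold signals below 4, so no order is read from them. The macrophage sums were lower in both clodronate pools, and their part in the Cxcl1 difference was not tested.

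**Figure D1:**
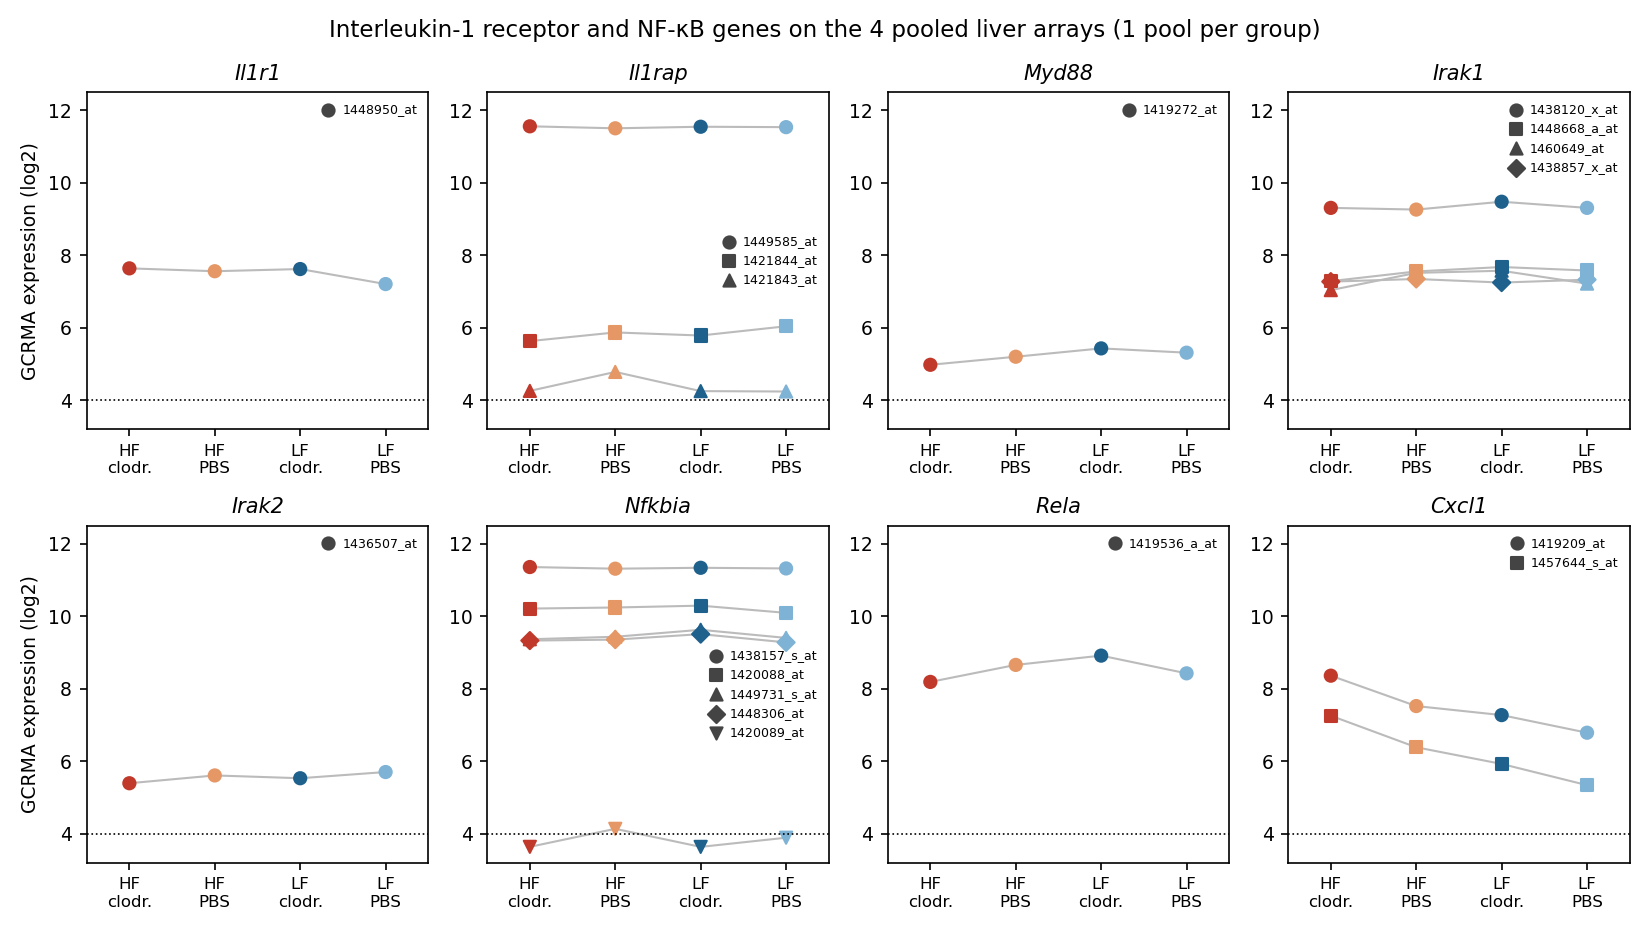
Expression (GCRMA, log2) of the 18 measurable probe sets of 8 genes on the 4 pooled arrays, 1 point per probe set and pool, with grey lines joining the points of a probe set and a dotted line at the limit of 4. Both Cxcl1 probe sets are highest in HF clodronate and lowest in LF PBS, Rela and some Irak1 probe sets are lowest in HF clodronate and highest in LF clodronate, and the brightest Il1rap and Nfkbia probe sets are level.

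Against the background of all probe sets, Cxcl1 and, in 1 comparison, Rela were the members that differed 1.5-fold or more. Clodronate against PBS on the high-fat diet left 2 of 18 probe sets 1.5-fold or more higher, both of Cxcl1, where 0.72% of the 16245 probe sets were, and 0 lower, where 2.95% were; 0 were 2-fold or more higher, where 0.111% of all were. On the low-fat diet 0 of 18 were 1.5-fold or more higher or lower, where 2.45% and 1.39% of all were, and 0 were 2-fold or more higher, where 0.252% of all were. The median difference of the 18 was -0.07 on the high-fat diet, against -0.04 over all probe sets, and 0.14 on the low-fat diet, against 0.05 over all. The median size of the difference, sign aside, was 0.17 on the high-fat and 0.18 on the low-fat diet for the 18, against 0.12 on each diet over all. Of the 18, 8 differed in opposite directions on the diets, and 51.6% of all probe sets did so too.

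High-fat against low-fat diet after clodronate left 2 of 18 probe sets 1.5-fold or more higher, again both of Cxcl1, where 1.66% of all were. Both were also 2-fold or more higher, where 0.382% of all were, and 1 probe set, of Rela, was 1.5-fold or more lower, where 5.73% of all were. After PBS the 2 Cxcl1 probe sets were again the members 1.5-fold or more higher, where 2.32% of all were, and 0 were lower, where 1.53% were. The probe set 1457644_s_at was 2-fold or more higher, as were 0.363% of all. The medians of the 18 were -0.11 after clodronate and 0.05 after PBS, against -0.09 and 0 over all probe sets, and the median sizes of 0.16 and 0.12 were close to the 0.16 and 0.13 of all.

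**Figure D2:**
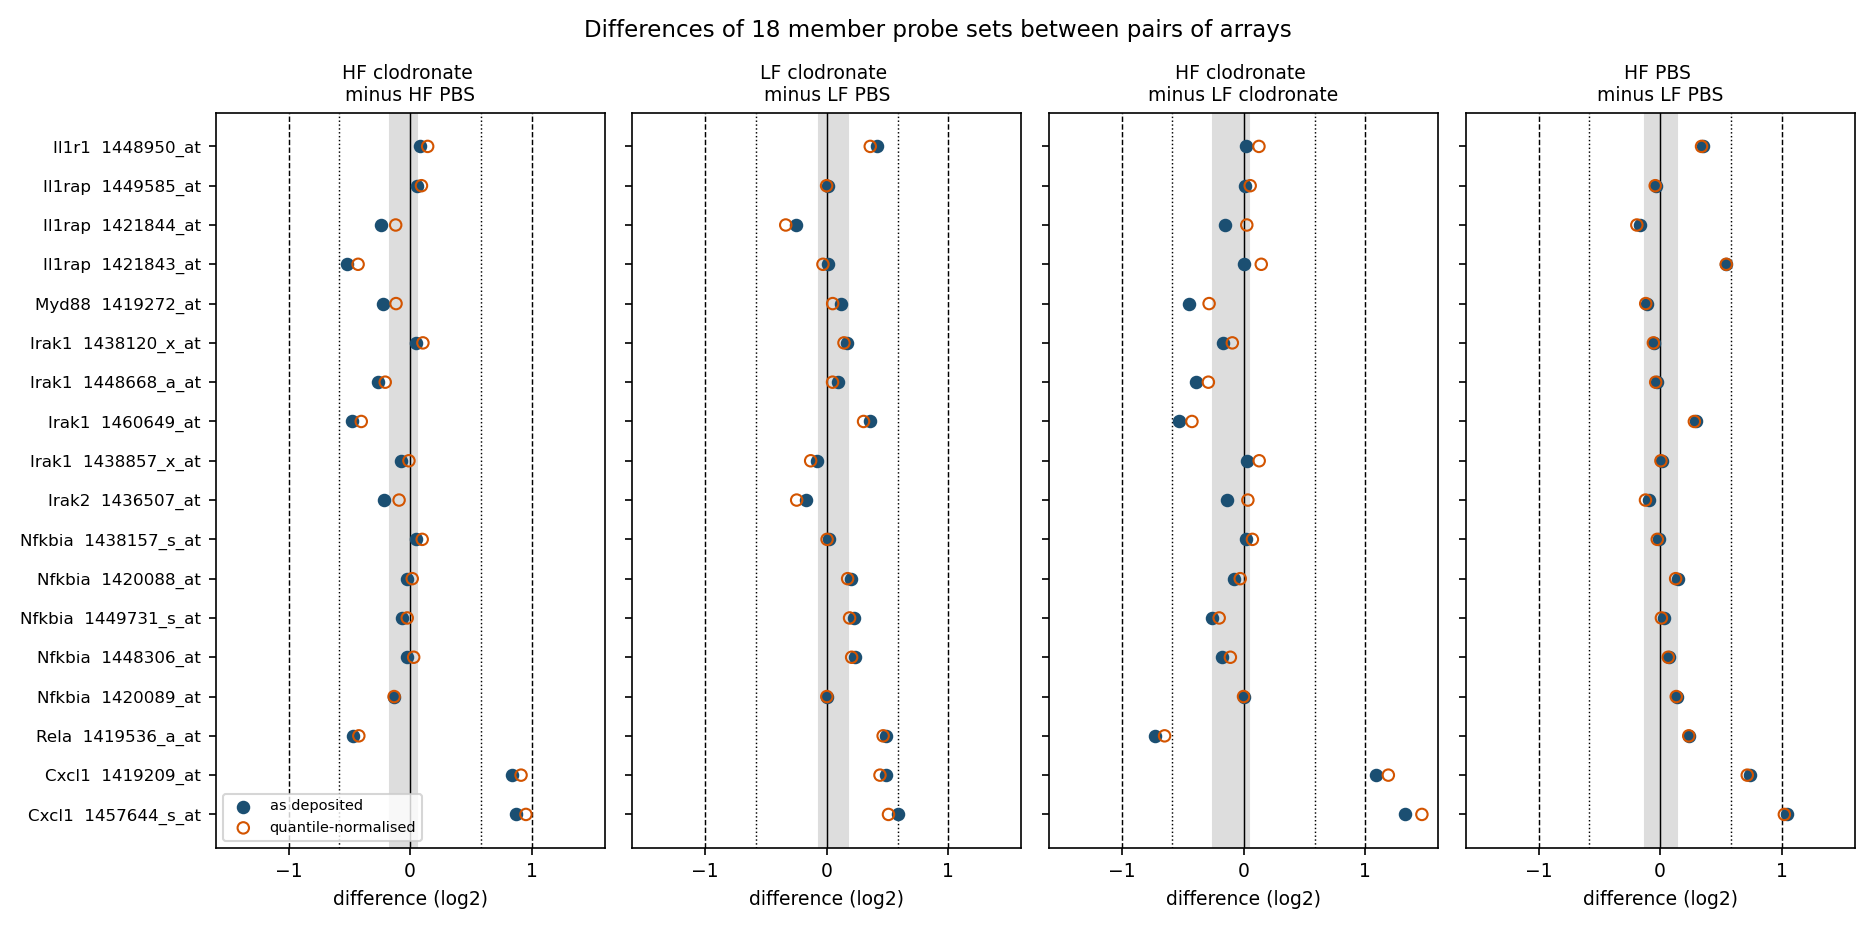
Differences (log2) of the 18 probe sets between pairs of pooled arrays, with values below 4 set to 4, as deposited (filled) and after quantile normalization (open). Grey bands hold the middle 50% of all 16245 probe sets, dotted lines mark 1.5-fold and dashed lines 2-fold; the 2 Cxcl1 probe sets lie right of 0 in all 4 panels and Rela lies on both sides.

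The arrays were not perfectly level with one another. The median over the measurable probe sets was 6.82 in HF clodronate, 6.89 in HF PBS, 6.95 in LF clodronate and 6.89 in LF PBS, so a typical probe set was 0.09 lower in HF clodronate than in LF clodronate. Centring of the arrays moved that median difference to 0.02. Of the 72 member differences 8 changed sign under quantile normalization or centring, and the largest of these was 0.15 in size as deposited. Those of Rela, Cxcl1, Il1r1 and the Irak1 probe set 1460649_at were not among them.

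In limma with Benjamini-Hochberg adjustment, 0 of the 18 probe sets passed for clodronate averaged over the diets, where 0.456% of all probe sets did, and 0 of 18 passed for the high-fat diet averaged over the injections, where 0.308% did. At an unadjusted p under 0.05 there were 2 of 18 for each factor, the 2 Cxcl1 probe sets, while 3.81% of all probe sets were under it for clodronate and 10.7% for diet. The model rests on 1 residual degree of freedom per probe set, combined with the mean-dependent prior. With 1 array per group that residual holds array noise and any dependence of the clodronate difference on diet together. The p values therefore measure neither array noise alone nor the spread between mice.

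Of 73 further genes of the pathway, 66 had a singly named probe set and 34 were measurable, each taken at its brightest probe set. In limma 0 of the 34 passed for either factor, where 0.456% of all probe sets passed for clodronate and 0.308% for diet. The interleukin-1 ligands themselves were too dim to compare. Il1b, encoding interleukin-1β, was at 2.86 in HF clodronate, 3.48 in HF PBS, 2.93 in LF clodronate and 3.25 in LF PBS. Il1a was at most at 2.70 and Il1rn, the natural receptor antagonist, at most at 3.33. Il18, a related cytokine made without a signal peptide, was measurable and level, between 7.86 and 7.89. Among receptors, the decoy Il1r2 was at most at 2.36, while Sigirr, which dampens interleukin-1 and Toll-like receptor signals, was at 6.32 in HF clodronate, 6.66 in HF PBS, 6.50 in LF clodronate and 6.26 in LF PBS.

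The intracellular steps of the pathway were mostly measurable. Casp1, the protease that matures interleukin-1β, was at 4.57 in HF clodronate, 4.93 in HF PBS, 4.47 in LF clodronate and 5.03 in LF PBS, lower by 0.36 and 0.56 after clodronate on the high-fat and low-fat diets. Macrophages also express Casp1, and the part of the macrophage markers in this difference was not tested. Of the 10 measurable adaptors and kinases, 2 were 1.5-fold or more lower in HF clodronate than in LF clodronate, where 4.79% of 8649 genes were. These were Map3k7, the kinase TAK1 that activates the IκB kinases, by 0.68, and Peli2, a ubiquitin ligase of Irak proteins, by 0.66, and both had other measurable probe sets that were lower by 0.33 or less. After PBS they differed by -0.07 and 0.002 between the diets. Tab2, just under 1.5-fold, was lower on the high-fat diet by 0.58 after clodronate and 0.42 after PBS (limma, adjusted p = 0.136). Its dimmer probe set 1451003_at was lower by 0.91 and 0.57. Ikbkg, the regulatory IκB kinase subunit NEMO, differed most in the same pair, by -0.39, and by -0.91 in its dim probe set 1450161_at.

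Nfkb2, the p100 precursor of the alternative NF-κB pathway, stayed between 4.03 and 4.27. Nfkbie, another IκB protein, was between 3.97 and 4.64. Dusp1, a phosphatase that restrains stress kinases, was 0.46 lower on the high-fat than on the low-fat diet after clodronate and 0.48 lower after PBS, and did not pass in limma (adjusted p = 0.158).

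Among 20 listed targets that NF-κB can induce, 9 were measurable, and 0 of them passed in limma. The shares of all probe sets that passed were 0.456% for clodronate and 0.308% for diet. Lcn2, a siderophore-binding acute phase protein, was at 7.57 in HF clodronate, 6.89 in HF PBS, 7.68 in LF clodronate and 4.94 in LF PBS. It stood apart in LF PBS, where it was lowest, and differed 6.69-fold between LF clodronate and LF PBS. Vcam1, an adhesion molecule, was at 5.02 in HF clodronate, 5.96 in HF PBS, 4.89 in LF clodronate and 6.27 in LF PBS, 1.92-fold and 2.60-fold lower after clodronate on the high-fat and low-fat diets. It did not pass in limma (adjusted p = 0.158), and a dimmer Vcam1 probe set, 1415989_at, was lower by 0.96 and 0.31. By 1451314_a_at, which reached 4 in HF clodronate alone, it differed by 0.02 on the high-fat diet and by 0 on the low-fat diet. The macrophage sums were lower in the same pools. Sinusoidal endothelial markers had median clodronate differences of -0.21 on the high-fat and 0.11 on the low-fat diet. Among them Pecam1 and Cdh5 were lower on both diets, Lyve1, Clec4g and Oit3 were higher, and Stab2 and Kdr went opposite ways. The part of either cell type in the Vcam1 difference was not tested.

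Csf1, the macrophage growth factor, was at 4.54 in HF clodronate, 3.96 in HF PBS, 4.93 in LF clodronate and 4.33 in LF PBS. It was higher after clodronate by at least 0.54 on the high-fat diet and by 0.60 on the low-fat diet. Cxcl10, a chemokine for T cells, was at 4.89 in HF clodronate, 4.81 in HF PBS, 4.25 in LF clodronate and 4.99 in LF PBS, 1.67-fold lower after clodronate on the low-fat diet alone. Icam1, an adhesion molecule for leukocytes, was at 5.16 in HF clodronate, 5.25 in HF PBS, 5.62 in LF clodronate and 5.81 in LF PBS. On the high-fat diet it was lower by 0.46 after clodronate and by 0.57 after PBS, the direction opposite to that of Cxcl1, and did not pass in limma (adjusted p = 0.415). The other measurable targets, Birc3, Sod2, Saa3 and Cebpd, differed by 0.20 or less in each of the 4 pairs. The targets Cxcl2, Cxcl5, Ccl2, Ccl20, Tnf, Il6, Ier3, Nos2, Ptgs2 and Traf1 were below 4 on all 4 arrays.

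Over the 34 genes, clodronate against PBS left 1 gene 1.5-fold or more higher (Lcn2) and 1 lower (Vcam1) on the high-fat diet, where 0.636% and 2.98% of 8649 genes were. On the low-fat diet it left 2 higher (Lcn2 and Csf1) and 2 lower (Vcam1 and Cxcl10), where 1.75% and 1.63% of genes were. The high-fat diet left 1 higher (Cxcl10) after clodronate, where 1.69% of genes were, and 2 lower, Map3k7 and Peli2. After PBS it left 1 higher (Lcn2) and 0 lower, where 2.15% and 1.47% of genes were.

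**Figure D3:**
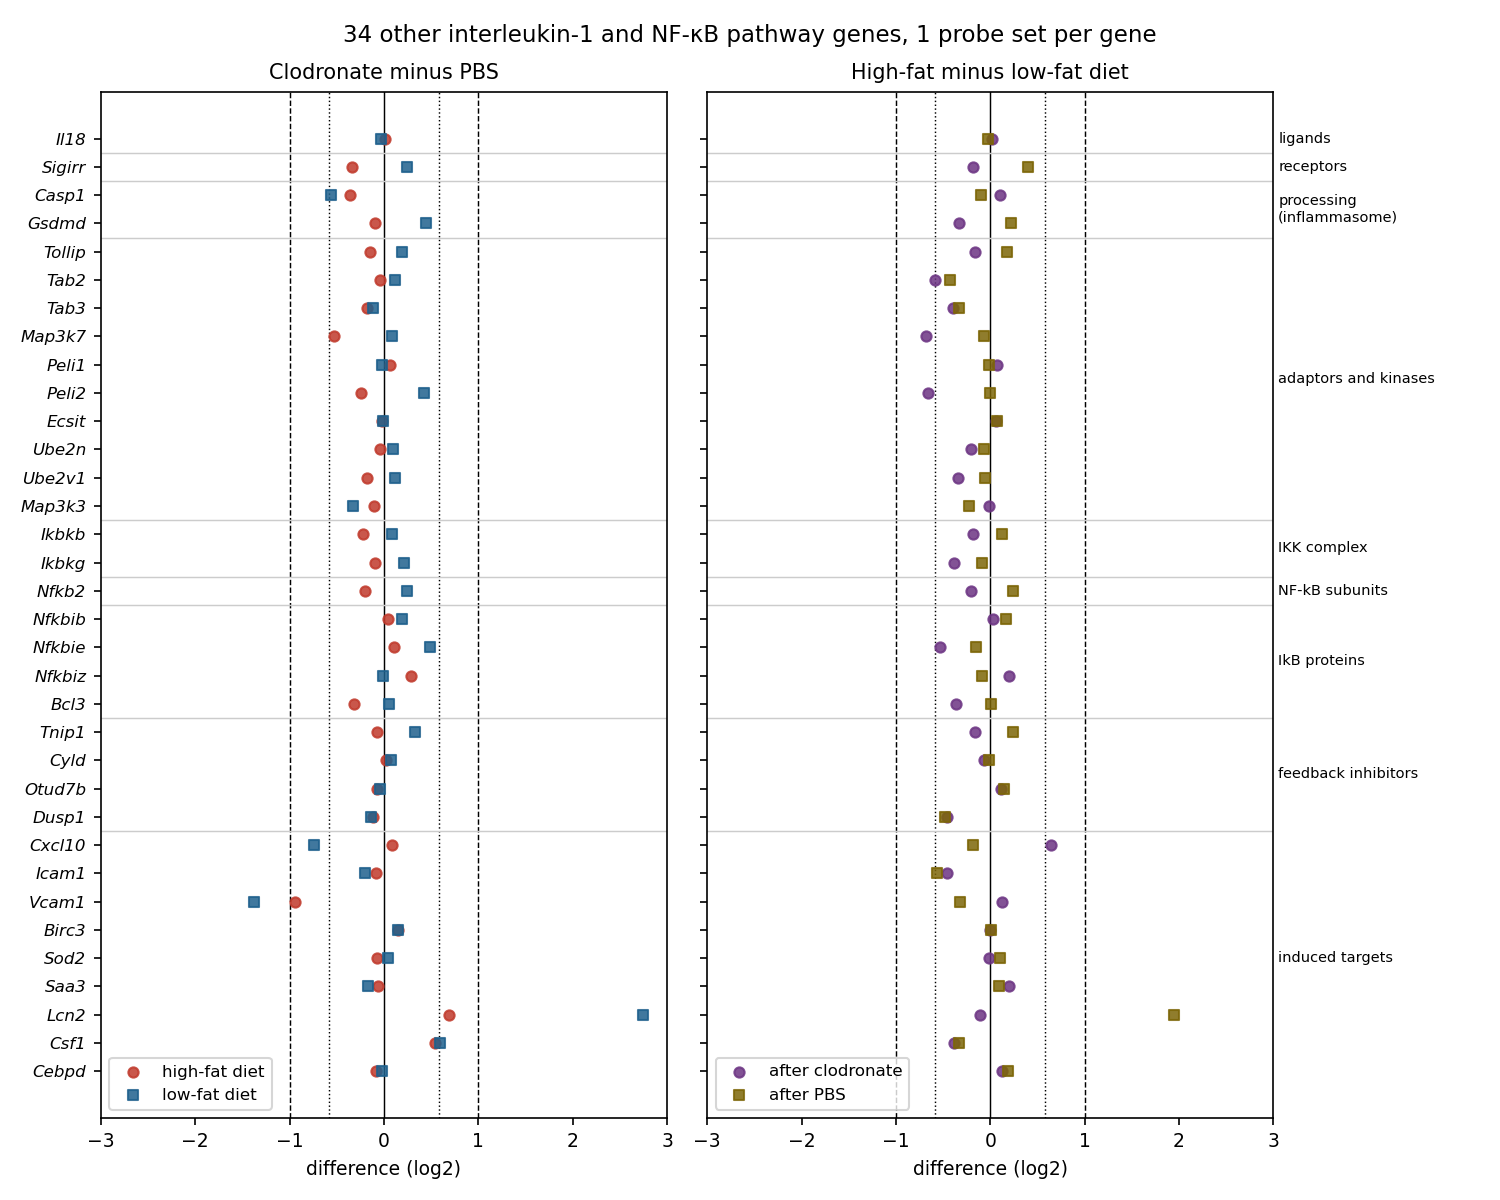
Differences (log2, values below 4 set to 4) of 34 further measurable pathway genes grouped by role, for clodronate minus PBS on each diet (left) and for high-fat minus low-fat diet after each injection (right). Dotted lines mark 1.5-fold and dashed lines 2-fold; most genes lie inside the dotted lines, and Lcn2 and Vcam1 lie farthest out.

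The genes whose values over the 4 arrays were most like those of Cxcl1 (1419209_at), by Euclidean distance between centred log2 values among 7943 other genes at 4 or more on all arrays, were Bmf, Igkv8-30 and Saa1. Their distances were 0.21, 0.23 and 0.24. Saa1, a serum amyloid, was at 11.76 in HF clodronate, 10.81 in HF PBS, 10.77 in LF clodronate and 9.97 in LF PBS. Bmf, a regulator of cell death, was at 6.26 in HF clodronate, 5.69 in HF PBS, 5.33 in LF clodronate and 4.92 in LF PBS. Igkv8-30, an immunoglobulin light chain gene, was at 5.64 in HF clodronate, 4.60 in HF PBS, 4.65 in LF clodronate and 4.12 in LF PBS. Like Cxcl1, all 3 were highest in HF clodronate and lowest in LF PBS, which follows from their choice by small distance to Cxcl1. The Saa1 and Igkv8-30 probe sets carry the suffixes s and x, whose probes can match related transcripts. With 4 arrays such likeness is a description.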

How the data were processed

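Liver RNA was pooled per group and hybridised to 1 single-colour Affymetrix array each, from 5 µg of total RNA with an integrity number above 8.0, per the labels' protocols. The deposited table held log2 values of 45101 probe sets, and the submitters' processing notes name GCRMA 2.24.1. GCRMA models background from probe sequence, normalizes by quantiles and combines the probes of a set. The values were used as deposited, leaving out 64 control probe sets; no scanner files were used here. Pearson's r between arrays over probe sets, which are not replicates, was 0.994 to 0.996. With 1 array per group, the number of arrays limits the precision.

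Gene names came from GEO's platform annotation, which gave 34958 of 35890 listed probe sets 1 symbol and 932 several. Of the probe sets used, 9160 were not listed. For pairs of arrays, values below 4 were set to 4 and log2 differences taken, with no test. Averaged effects were fitted with limma 3.58.1 in R 4.3.3, with diet and injection as additive terms, a mean-dependent prior (4.88 prior degrees of freedom) and Benjamini-Hochberg adjustment at 0.05 over 16245 probe sets at 4 or more on at least 1 array. On simulated data for the averaged clodronate effect (16245 probe sets, 200 changed, 20 runs) it recovered 59.2% of 2-fold and 98.3% of 4-fold changes, and 11.1% of its calls were unchanged probe sets, above the nominal 5%. Without the mean-dependent prior the fit recovered 0.72% of 2-fold and 72.8% of 4-fold changes, and 1.78% of its calls were unchanged probe sets. The simulated variances were drawn from the mean-dependent prior. The pair differences and promoter search ran in Python 3.11.15 (pandas 2.3.3, numpy 2.4.6). Promoter sequences came from RefSeq (GRCm38.p6), which held windows for all 8 genes.

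The members, gene lists and tests were chosen with earlier results of these data known. Named were all members and the ligands Il1a, Il1b and Il1rn. Per role, each gene 1.5-fold or more apart in a pair was named too, otherwise the gene with the largest difference. Il1r2, Cxcr2 and other dim genes, Tab2, and targets under 1.5-fold were named after their values were seen. Of the cell type lists, 0 of 7 measurable sinusoidal endothelial, 0 of 5 stellate and matrix, 0 of 5 hepatocyte, 0 of 1 cholangiocyte and 0 of 2 neutrophil markers passed in limma for either factor. Over all probe sets 0.456% passed for clodronate and 0.308% for diet. Alternatives covered the prior, normalization, filter, floor and choice of probe set.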

Additional observations from a re-analysis of the deposited data

Results flagged for a closer look

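Rela (1419536_a_at) differed in opposite directions between the diets, and between the injections, by more than the median size of difference over all probe sets each time. Clodronate minus PBS was -0.47 on the high-fat diet and 0.49 on the low-fat diet, and high-fat minus low-fat diet was -0.72 after clodronate and 0.23 after PBS (log2). The Irak1 probe set 1460649_at did the same, with -0.48 and 0.35 for clodronate and -0.53 and 0.30 for diet. The other Irak1 probe sets did not differ in opposite directions by that much. Of all probe sets, 51.6% differed in opposite directions between the diets and 39.9% between the injections. The share that also exceeded the median sizes was not counted, so the flags have no background to be set against. Whether the Rela or Irak1 difference itself depended on diet or injection was not tested. Each rests on the same 4 arrays, so the diet and the clodronate view of a gene are not independent.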

How the results depend on the processing

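Over the single-pair counts and medians and the counts of members passing in limma, 74 of 88 values under alternatives kept their call or stayed within the tolerance. For the averaged diet effect the count of passing member probe sets was 0 as reported, 1 with robust eBayes, 2 after quantile normalization, 2 after centring and 1 with 1 probe set per gene, all of Cxcl1; for clodronate it was 0 under all 8 alternatives. With 1 probe set per gene or the mean of a gene's probe sets, HF clodronate minus HF PBS had 1 instead of 2 members 1.5-fold apart and medians of 0.046 and -0.204, against -0.07, HF clodronate minus LF clodronate had 1 at 2-fold, and HF PBS minus LF PBS had 1 at 1.5-fold and 0 at 2-fold. Both settings count Cxcl1 once, and the brighter of its probe sets, or the mean of both, was under 2-fold after PBS. The averaged diet difference of Nfkbia 1448306_at was 0.011 after centring, against -0.05, and that of Il1rap 1449585_at was 0.007 after quantile normalization and 0.052 after centring, against -0.01. Over all probe sets, 74 passed for clodronate, but 11 without the mean-dependent prior, 23 without a filter, 24 among probe sets measurable on all arrays and 47 with values below 4 set to 4. Of the 9 Kupffer cell markers, 7 fell as reported and between 3 and 9 in the alternatives that tested all 9; of the 9 pan-macrophage markers, 9 fell as reported and between 3 and 9. Among probe sets measurable on all arrays, 1 of 2 and 5 of 5 fell. For diet 50 passed, but 107 with robust eBayes, 157 after quantile normalization, 234 after centring, 146 with 1 probe set per gene, 21 with values below 4 set to 4, and 0 without the prior (1495 at an unadjusted p under 0.05) or without a filter (2577). The cause was not tested. No paired analysis was possible because each group had 1 array and the labels give no replicate numbers. Signals near 4, such as Il1rap 1421843_at and Nfkbia 1420089_at, limit what can be said of those probe sets.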
